A study of Mus musculus with 6 samples.

Results

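The genes described here are 10 ligands and receptors of the platelet-derived growth factor (PDGF) and vascular endothelial growth factor (VEGF) families. They were taken by name as Pdgfa, Pdgfb, Pdgfc, Pdgfd, Pdgfra, Pdgfrb, Vegfa, Vegfb, Vegfc and Flt1, each with a probe set annotated to that gene alone. All 10 were measured, by 1 probe set each, among 22180 genes on the array. The arrays carried RNA of prostate epithelial cancer cells derived from Rb1F/F:Trp53F/F:PB-Cre4 mice. In these mice the probasin promoter drives Cre recombinase in prostate epithelium, which deletes the floxed Rb1 and Trp53 genes, so both groups share that deletion. Control cells received a lentivirus with an empty vector (EV, 3 arrays) and the other cells a lentivirus for the kinase PIM1 (PIM1, 3 arrays). Both grew with the same supplements, among them insulin and epidermal growth factor. The labels name no clone, separate culture or separate transduction, so p-values measure the spread between these arrays, which may be technical.

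PDGFs are secreted dimers that pair and activate receptor tyrosine kinases at the cell surface. The receptor encoded by Pdgfra binds the A, B and C chains, and the one encoded by Pdgfrb binds the B and D chains. In most tissues epithelial and endothelial cells release PDGFs and the receptors sit on fibroblasts, pericytes and smooth muscle. VEGFs are related dimers that drive growth and permeability of blood and lymphatic vessels through the kinases Flt1, Kdr and Flt4, which are typical of endothelium. In prostate, as in other tissues, epithelial tumour cells can release VEGF-A, and lack of oxygen raises Vegfa expression.

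In PIM1 cells the receptors and the VEGF ligands were higher than in EV cells, and the PDGF ligands B, C and D were lower. Pdgfra rose 25.9-fold, Flt1 2.84-fold, Pdgfrb 2.61-fold and Vegfa 2.41-fold, whereas Pdgfd fell 4.66-fold, Pdgfc 3.92-fold and Pdgfb 1.89-fold. Of the 10 genes, 6 rose and 3 fell, and Pdgfa was not called. The rise of Vegfb was not called in most alternatives, and without it 5 rose. A call here is an adjusted p under 0.05 in the limma fit of all genes. In that fit 27.0% of all 22180 genes were called, 16.1% higher and 10.9% lower. Calls were more common among brighter genes. When the 11090 brighter genes were tested alone, 5906 of them were called, 8 members among these, and Pdgfb was too dim to enter. The arrays of both groups did not overlap for 9 of the 10 genes, against 43.2% of all genes. A called change of at least 2-fold was seen for 6 of the 10, against 6.26% of all genes. Both of these shares of all genes include the dim ones and were not taken among the brighter genes alone. Because the 10 genes were chosen with earlier results of these data known, these shares describe them and test nothing. The median difference of the 10, PIM1 minus EV on the log2 scale, was 0.52, beside -0.05 for all genes, and their differences ran from -2.22 to 4.70. All values are log2 signals, each group has n = 3 arrays, and a negative difference means lower in PIM1. In RNA from whole cultures, more cells of a type and more RNA per cell cannot be told apart.

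**Figure D1:**
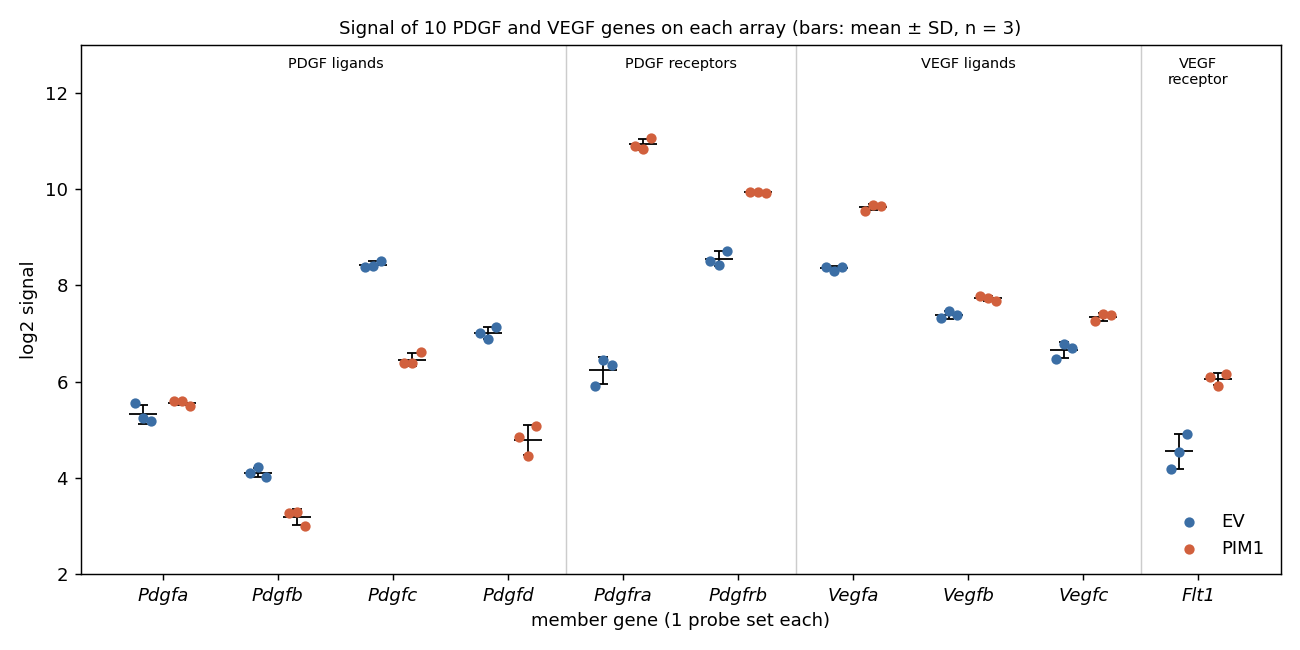
Log2 signal (vertical axis) of each of the 10 genes (horizontal axis) on the 3 EV and 3 PIM1 arrays, with 1 point per array and bars for mean and SD. The Pdgfra points stand at 5.91 to 6.45 in EV and 10.84 to 11.05 in PIM1, and the Pdgfa points of both groups overlap.

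Among the PDGF ligands none rose and 3 of 4 fell (0 and 3 at an unadjusted p under 0.05 as well, in limma). Pdgfd encodes a latent ligand that becomes active after its CUB domain is cut off, by urokinase among other proteases. EV arrays gave 7.01, 6.89 and 7.14 for Pdgfd, and PIM1 arrays gave 4.84, 4.46 and 5.08. Every PIM1 array lay below every EV array. The difference was -2.22 (standard error 0.163, adjusted p = 3.68e-05), number 47 among the falls of all genes. Pdgfc encodes the other latent ligand, activated by tissue plasminogen activator. It read 8.38, 8.41 and 8.51 in EV and 6.38, 6.38 and 6.61 in PIM1. The spread within each group was small beside the gap, and the difference was -1.97 (standard error 0.107, adjusted p = 7.46e-06), number 66 among the falls.

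Pdgfb, the B chain that both receptors bind, stood at 4.09, 4.22 and 4.02 in EV and at 3.28, 3.30 and 3.00 in PIM1. The PIM1 signals of Pdgfb lay below the median of all probe sets on those arrays, which averaged 3.40, so they hold an unknown share of background. The difference was -0.92 (standard error 0.118, adjusted p = 7.66e-04). Pdgfa, the A chain that binds the alpha receptor alone, read 5.55, 5.25 and 5.17 in EV and 5.59, 5.59 and 5.50 in PIM1. One EV array stood inside the PIM1 range. The Pdgfa difference was 0.24 with a 95% confidence interval from -0.04 to 0.52 (adjusted p = 0.192; 0.11 after quantile normalization and 0.16 after cyclic loess), so a rise of up to 0.52 on the log2 scale lies within it.

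Both PDGF receptor genes rose. Pdgfra, a kinase known from mesenchymal progenitors and fibroblasts, stood at 5.91, 6.45 and 6.34 in EV and at 10.90, 10.84 and 11.05 in PIM1. The groups were separated by more than 4 on the log2 scale, with EV replicate 1 the lowest array. The difference was 4.70 (standard error 0.152, adjusted p = 5.84e-07), number 20 among the rises of all genes. Pdgfrb, the kinase known from pericytes and smooth muscle, was already well above the array median in EV, at 8.51, 8.43 and 8.72. It read 9.94, 9.95 and 9.92 in PIM1, where the arrays nearly coincided. The difference was 1.39 (standard error 0.108, adjusted p = 5.09e-05).

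Fibroblast and mural markers stood beside the receptors as follows. For scale, 16.1% of all genes were called higher and 10.9% lower. Of 11 fibroblast markers without Pdgfra itself, 7 rose and 2 fell, with a median difference of 0.91 (0.60 when the probe sets of a gene were averaged). Their summed signal, on the log2 scale, was 11.00 to 11.02 in EV and 12.49 to 12.56 in PIM1. Dcn, which encodes the matrix proteoglycan decorin, rose by 5.48, Dpt, for dermatopontin, by 2.58 and Fbln1, for fibulin-1, by 1.94. Mfap5, a microfibril protein gene, fell by 1.62. Fap, a surface protease gene of activated fibroblasts, fell by 0.47 at a signal of 2.18 in EV and 1.71 in PIM1, a call that was lost after quantile normalization (adjusted p = 0.0541), after cyclic loess (0.0546) and without PIM1 replicate 1 (0.0516) or 2 (0.0553). Of the 11 markers 3, Fap, Lum and Pi16, lay below the array median in both groups. Of 11 pericyte and smooth muscle markers 2 rose and 1 fell, with a median difference of -0.17, and 3 lay below the array median in both groups. Their summed signals were 8.32 to 8.38 in EV and 8.41 to 8.53 in PIM1, a sum that includes the large rise of Rgs5. Rgs5, a pericyte regulator of G protein signalling, rose by 3.00, from 3.18 to 6.18, and the calponin gene Cnn1 by 0.62. Tagln, which encodes an actin-binding protein, fell by 1.56 to 3.15 in PIM1, below the array median there. Myh11, for smooth muscle myosin, differed by -0.35 (adjusted p = 0.118). The part of such cells in the receptor results was not tested.

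All VEGF ligand members rose. Vegfa, the main growth factor of blood vessels, stood at 8.39, 8.30 and 8.39 in EV and at 9.55, 9.67 and 9.66 in PIM1. Every PIM1 array lay more than 1 above every EV array, and the difference was 1.27 (standard error 0.0943, adjusted p = 3.96e-05). Vegfc, the lymphatic growth factor, read 6.47, 6.79 and 6.69 in EV and 7.25, 7.40 and 7.39 in PIM1. The groups did not overlap, and the difference was 0.70 (standard error 0.116, adjusted p = 0.00308). Vegfb, a ligand of Flt1 with little effect on vessel growth, read 7.32, 7.48 and 7.38 in EV and 7.78, 7.73 and 7.68 in PIM1. Its difference was the smallest of the called members at 0.34 (95% confidence interval 0.12 to 0.56, adjusted p = 0.0338). The Vegfb call was lost in 9 of 15 alternatives. Its adjusted p was 0.120 after quantile normalization, 0.0974 after cyclic loess and 0.0704 when every probe set was tested. It was 0.0831 without EV replicate 1, 0.0748 without EV replicate 3, and 0.120, 0.101 and 0.0540 without PIM1 replicate 1, 2 and 3. With the replicate number as a block it was 0.0741.

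Flt1, the only VEGF receptor among the 10, binds VEGF-A, VEGF-B and placental growth factor with high affinity and also exists as a secreted decoy that captures them. Its signal was 4.20, 4.54 and 4.92 in EV against 6.11, 5.91 and 6.16 in PIM1. The EV arrays were spread more widely than the PIM1 arrays, with an SD of 0.361 against 0.130, and the groups did not overlap. The Flt1 difference was 1.51 (standard error 0.179, adjusted p = 5.20e-04). The single Flt1 probe set does not separate the membrane form from the secreted form. Endothelial markers, the cell type in which Flt1 is best known, were at low signal. Of 12, 10 lay below the array median in both groups, and their summed signal was 6.76 to 6.85 in EV and 6.60 to 6.85 in PIM1. None of the 12 rose (0 at an unadjusted p under 0.05, where 2 were lower), against 16.1% of all genes called higher. Robo4, a guidance receptor of endothelium, was called lower by 0.34, from 3.49 to 3.15, and lost that call after quantile normalization, cyclic loess or centring of the arrays (adjusted p = 0.157, 0.148 and 0.147), with the replicate block (0.0945), with trended and robust variance (0.0933), with every probe set tested (0.0903) and without any 1 of the 6 arrays (0.0536 to 0.126). Cldn5, Emcn and Egfl7, genes of endothelial junctions, surface and matrix, differed by -0.23, -0.34 and 0.23 and were not called, though Emcn passed without EV replicate 3 (-0.52, adjusted p = 0.0128).

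The remaining genes of both families moved both ways. Of 7, 3 rose and 1 fell (57.1%, against 27.0% of all genes and 5906 of the 11090 brighter genes tested alone). Their median difference was 0.28. Vegfd, the second lymphatic growth factor, rose by 1.16 (adjusted p = 1.28e-04), with EV arrays at 6.98, 7.21 and 7.21 and PIM1 arrays at 8.25, 8.26 and 8.37. Pgf, which encodes placental growth factor, was dim but rose by 0.95, from 3.18 ± 0.489 to 4.13 ± 0.117 (adjusted p = 0.0150), a call that was lost without PIM1 replicate 2 (0.0553) or 3 (0.0604). The co-receptors that VEGFs share with semaphorins went apart. Nrp1 fell by 1.09, from 9.09 ± 0.098 to 7.99 ± 0.071 (adjusted p = 1.38e-04), and Nrp2 rose by 0.47, from 8.75 ± 0.037 to 9.23 ± 0.047 (adjusted p = 0.00625). Kdr, the main signalling receptor for VEGF-A, was not called and lay close to the array median. It read 3.55, 3.66 and 3.35 in EV and 3.80, 3.79 and 3.25 in PIM1, with a 95% confidence interval of the difference from -0.29 to 0.47. Flt4, the receptor for VEGF-C and VEGF-D, differed by -0.04 (interval -0.31 to 0.23), and this sign turned after quantile normalization (0.05), cyclic loess (0.04) and centring (0.06). Pdgfrl, a PDGF receptor-like gene without a kinase domain, differed by 0.28 (adjusted p = 0.0861), and it passed after centring of the arrays (adjusted p = 0.0365) and when the brighter genes alone were tested (0.0335).

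**Figure D2:**
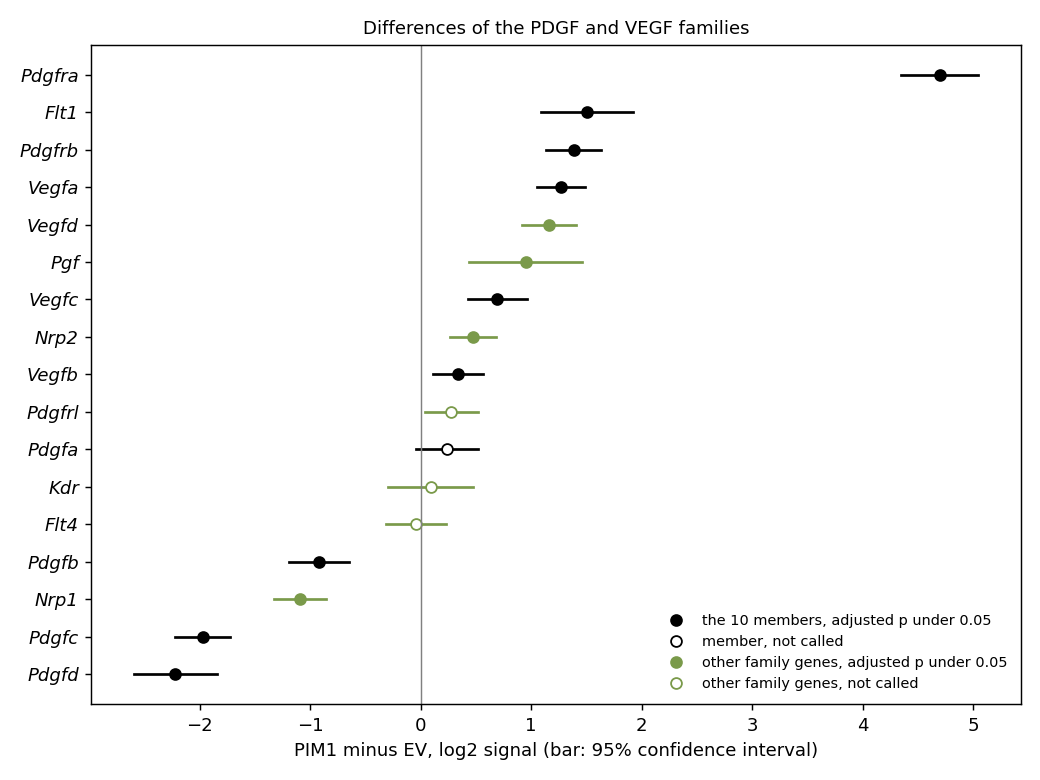
Difference PIM1 minus EV in log2 signal (horizontal axis) with its 95% confidence interval for the 10 members (black) and 7 other family genes (green), ordered by size (vertical axis). Filled points passed adjusted p under 0.05, and the order runs from Pdgfd at -2.22 to Pdgfra at 4.70.

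Related members were also set against each other within each array, which asks whether they changed by unequal amounts. The zero point of such a difference has no meaning, since different probe sets respond differently, and only its shift between groups is read. For Pdgfra minus Pdgfrb the shift was 3.31, from -2.60, -1.98 and -2.38 in EV to 0.96, 0.89 and 1.13 in PIM1. Pdgfa minus Pdgfb shifted by 1.16, Vegfa minus Vegfb by 0.93 and Vegfa minus Vegfc by 0.57. Pdgfc and Pdgfd fell by the most similar amounts, with a shift of 0.25 against an SD of 0.0929 in EV and 0.224 in PIM1. In each of these 5 pairs the groups did not overlap, and the two-sided exact permutation test gave p = 0.1, the smallest that 3 against 3 arrays allow (0.1 also after adjustment over the 5 pairs). No pair can therefore pass 0.05 in this test.

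**Figure D3:**
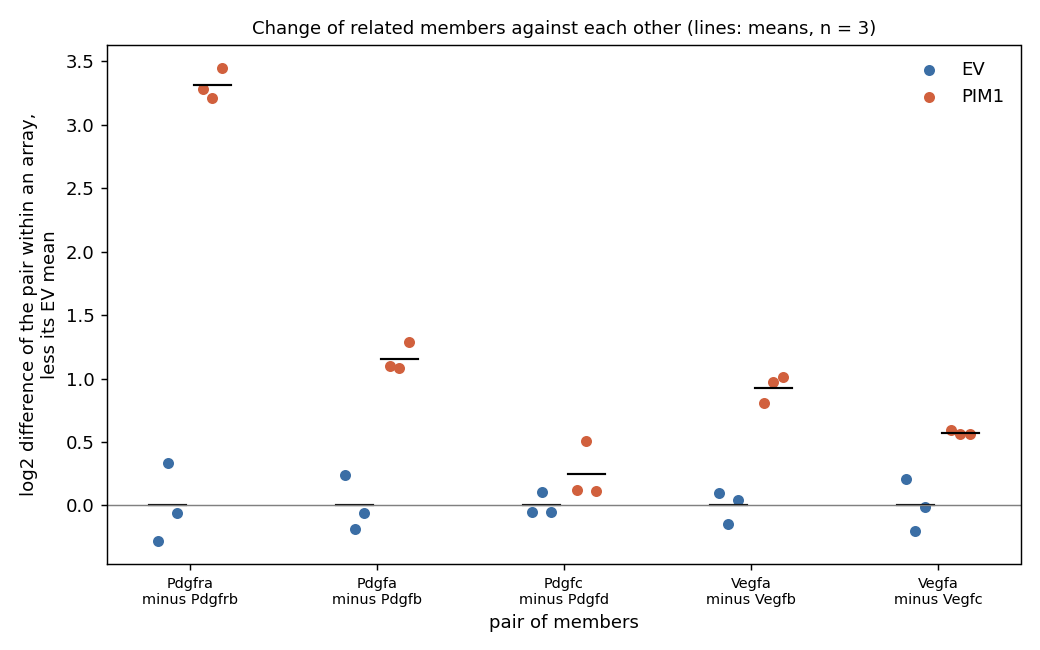
Log2 difference of 2 members within an array, less its EV mean (vertical axis), for the 5 pairs (horizontal axis), with 1 point per array and lines at group means. The shift is largest for Pdgfra minus Pdgfrb, at 3.31, and smallest for Pdgfc minus Pdgfd, at 0.25.

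The genes whose profiles over the 6 arrays lay closest to those of the most changed members were found by Euclidean distance after each gene was centred on its mean. Those closest to Pdgfra were Ccl5, a T cell chemokine gene (distance 0.379), Adm, which encodes the vasodilator adrenomedullin (0.451), and Il6, the interleukin-6 gene (0.507). Their differences were 4.62, 4.81 and 4.41. Those closest to Pdgfd were Edil3, a secreted integrin ligand gene (0.292), Iqgap2, a scaffold protein gene (0.306), and Ralgps2, an activator of Ral GTPases (0.342), with differences of -2.28, -2.21 and -2.29. With 6 arrays in 2 groups such a distance follows mostly the size of the group difference.

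Sequence upstream of the start was looked up for the most changed PDGF genes and for Vegfa, to show the promoters of genes that rose and fell in the same cells. RefSeq windows on GRCm38.p6 were found for 8 of the 10 members, in 10 windows, and the 250 bases before the start were searched on both strands. Capitals mark the Sp1-type motif GGGCGG, the only one of 5 searched motifs present in the windows shown.
Pdgfra, chr5:75152001-75152250, plus strand: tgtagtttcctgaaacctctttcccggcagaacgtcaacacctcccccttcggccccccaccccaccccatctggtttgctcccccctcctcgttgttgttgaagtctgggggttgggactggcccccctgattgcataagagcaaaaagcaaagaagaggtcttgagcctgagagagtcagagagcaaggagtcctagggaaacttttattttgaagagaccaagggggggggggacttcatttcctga
Pdgfc, chr3:81036166-81036415, plus strand: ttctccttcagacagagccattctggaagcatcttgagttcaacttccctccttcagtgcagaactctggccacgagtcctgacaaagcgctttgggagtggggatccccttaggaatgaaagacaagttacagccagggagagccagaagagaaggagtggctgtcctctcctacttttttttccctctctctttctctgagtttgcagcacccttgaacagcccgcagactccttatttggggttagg
Pdgfd, chr9:6168236-6168362, plus strand: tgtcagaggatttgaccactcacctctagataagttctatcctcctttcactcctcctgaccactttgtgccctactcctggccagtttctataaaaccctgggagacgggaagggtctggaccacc
Vegfa, chr17:46032378-46032627, minus strand: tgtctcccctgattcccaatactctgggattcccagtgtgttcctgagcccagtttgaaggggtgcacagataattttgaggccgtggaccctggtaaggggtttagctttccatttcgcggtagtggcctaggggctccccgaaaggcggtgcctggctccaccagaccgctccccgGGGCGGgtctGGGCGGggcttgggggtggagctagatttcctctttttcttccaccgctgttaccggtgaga
The Pdgfra start listed lies 929 bases inside the span that RefSeq gives the gene, which has a longer transcript. For Pdgfd the 127 bases outside the gene's span are shown. GGGCGG occurred 2 times in the Vegfa window and 0 times in those of Pdgfra, Pdgfc and Pdgfd. It was found in 7 of the 10 windows, which belong to Pdgfa, Vegfa, Vegfb, Vegfc and Flt1, and in 32.7% of all 32851 windows. Of the starts behind these 7, that of Flt1 lies 427 bases, those of Pdgfa 6511 and 5848 bases and the second Vegfa start 7214 bases inside the span of the gene, so those windows lie within it. The HIF core ACGTG was found in 1 of the 10 windows, that of a second Vegfa start, and in 16.6% of all windows. The STAT motif TTCNNNGAA, the kappaB-type motif GGNNTTTCC and the AP-1 motif TGANTCA were found in 0 of the 10 windows and in 7.02%, 4.93% and 6.75% of all windows. Since GGGCGG was the only searched motif present in the windows shown, no overlap with another motif was possible there. A match describes the letters alone, and its absence says nothing about the factor.

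Genes that regulate Vegfa and other targets of hypoxia-inducible factors (HIF) were examined beside it. For scale, 27.0% of all genes were called, 16.1% higher and 10.9% lower, and 5906 of the 11090 brighter genes tested alone. Of 14 regulators of Vegfa expression, oxygen-sensing and RNA-binding genes among them, 7 rose, 7 were not called and 0 fell (8 higher and 0 lower at an unadjusted p under 0.05 in limma). Their median difference was 0.33. The list mixes genes that raise and genes that lower HIF or Vegfa, so its count gives no direction for Vegfa. The count of rises was 4 without PIM1 replicate 3. Egln3, a HIF prolyl hydroxylase gene that HIF itself induces, rose by 1.75, Stat3, a transcription factor gene, by 1.32 and Hif1a, the oxygen-regulated HIF subunit gene, by 0.74 (0.48, adjusted p = 0.0464, when its probe sets were averaged). Zfp36, whose product shortens the life of messages with AU-rich elements, Vegfa among them, rose by 1.09. Of 8 other HIF targets measured 7 rose and 0 fell (the same counts at an unadjusted p under 0.05), with a median difference of 1.00. Adm rose by 4.81, the carbonic anhydrase gene Car9 by 2.30, the mitophagy gene Bnip3 by 1.30 and the stress-response gene Ndrg1 by 1.27.

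Proteases that cut PDGF or VEGF ligands and proteins that bind them were split, with 4 of 15 higher and 4 lower. These calls are 53.3% of the list, beside 27.0% of all genes and 5906 of the 11090 brighter genes tested alone. The list's median of -0.02 turned to 0.11 after quantile normalization, 0.10 after cyclic loess, 0.08 after centring and 0.05 without PIM1 replicate 2. Plau, the urokinase gene, fell by 2.86 from 8.34 to 5.48 on the arrays in which its substrate gene Pdgfd fell. Plat, the tissue plasminogen activator gene, rose by 0.61 from 8.08 to 8.69 while Pdgfc fell. Mmp3 and Mmp9, matrix metalloproteinase genes whose products can release or trim VEGF-A, rose by 3.40 and 1.71. Ccbe1, a cofactor gene of VEGF-C processing, fell by 0.97 while Vegfc rose, from 4.25 to 3.29, which is below the array median in PIM1.

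Genes that act downstream of the receptors also changed in both directions. Among all genes 27.0% were called, and among the 11090 brighter genes tested alone 5906 were. Of 19 adaptors and effectors 5 rose and 4 fell, which is 47.4%, with a median of 0.03. That median had no stable sign: it was -0.08 after quantile normalization, -0.06 after cyclic loess and 0.13 after centring of the arrays, and ran from -0.06 without PIM1 replicate 3 to 0.11 without EV replicate 2. After quantile normalization 7 were called lower. Shc1, an adaptor gene that links receptors to RAS, rose by 1.31 and Pik3r1, the regulatory subunit gene of PI 3-kinase, by 0.87. Rasa1, a RAS-inactivating protein gene, fell by 0.95, the RAS exchange factor gene Sos1 by 0.81 and the kinase gene Src by 0.45. Nck2, an adaptor gene, fell by 0.36, and that call was lost after centring (adjusted p = 0.0910), with every probe set tested (0.0581), with the replicate block (0.0600), without EV replicate 1 or 2 (0.0625 and 0.0630) and without PIM1 replicate 1, 2 or 3 (0.105, 0.0548 and 0.0597). Of 14 turnover and feedback genes 5 rose and 4 fell, which is 64.3% (2 fell without PIM1 replicate 2). Their median was 0.05 (0.14 after centring and 0.12 without EV replicate 3). Grb10, an adaptor gene that restrains receptor kinases, rose by 1.91, Ptpn1, a non-receptor phosphatase gene, by 1.16 and the feedback inhibitor gene Spry4 by 0.72, whereas Spry1 of the same family fell by 1.57. Ptprb, a phosphatase gene of endothelium, fell by 0.59, from 3.28 to 2.70, and lay below the array median in both groups. Cbl, a ubiquitin ligase gene for receptor kinases, fell by 0.41 and lost the call after centring (adjusted p = 0.0623) and without PIM1 replicate 1 (0.0737) or 2 (0.0727). Sh2b3, an adaptor gene that dampens kinase signalling, fell by 0.51 and lost the call without PIM1 replicate 2 (0.0605). Among 6 genes of the related class III receptors and their ligands 1 rose and 2 fell, with a median of -0.18 (-0.08 after centring and -0.10 without EV replicate 1). The macrophage growth factor gene Csf1 rose by 0.98 and its receptor gene Csf1r fell by 1.35. Kit fell by 0.48 to 3.08 in PIM1, below the array median there. The Kit ligand gene Kitl differed by 0.19 (adjusted p = 0.263), by 0.06 after quantile normalization and by 0.09 without PIM1 replicate 3.

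**Figure D4:**
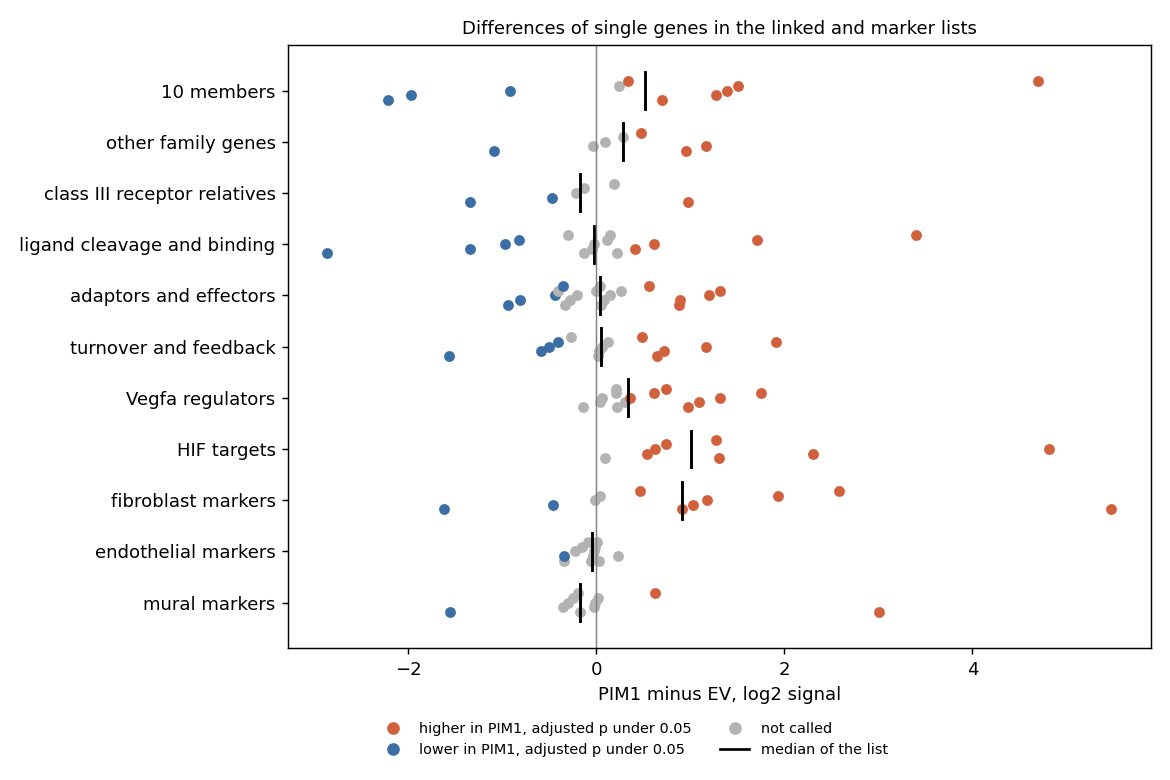
Difference PIM1 minus EV in log2 signal (horizontal axis) of every measured gene in the lists named on the vertical axis, with 1 point per gene, coloured by call, and a line at the list's median. The 8 HIF targets lie at or right of 0.09, whereas the members and the ligand-cleaving genes lie on both sides of 0.

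Markers of the labelled epithelial cell type stood at mixed levels. For scale, 16.1% of all genes were called higher and 10.9% lower. Of 8 luminal prostate markers 2 rose, 1 fell (2 after quantile normalization) and 3 lay below the array median in both groups, with Epcam, the epithelial adhesion molecule gene, at 2.50 in EV and 2.35 in PIM1. Krt18, a simple keratin gene, fell by 4.24 from 9.14 to 4.90, whereas the surface antigen gene Cd24a rose by 1.65 (0.94 when its probe sets were averaged) and the prostate homeobox gene Hoxb13 by 0.58. The protease gene Tmprss2 differed by -0.27 (adjusted p = 0.108). Of 8 basal markers 0 rose and 3 fell (0 and 5 at an unadjusted p under 0.05 in limma), and 5 lay below the array median in both groups, Krt14 among them at 2.98 and 2.55. The Krt14 difference of -0.42 was not called (adjusted p = 0.119), and it passed with the replicate block (0.0321). Itga6, a laminin receptor gene, fell by 2.10, the P-cadherin gene Cdh3 by 1.29 and the laminin gene Lamb3 by 1.03. Lamb3 stood at 3.37 in PIM1, just below the array median there. The keratin gene Krt15 differed by -0.39 (adjusted p = 0.0932). Of 7 macrophage and leukocyte markers 1 rose, Cd14, a lipopolysaccharide co-receptor gene, by 2.20, and 5 lay below the array median in both groups. Adgre1, Lyz2 and Itgam, macrophage genes, differed by -0.43, -0.96 and -0.24 without a call, though Adgre1 passed without EV replicate 3 (adjusted p = 0.0259) and Lyz2 without EV replicate 2 (0.00220) and with the replicate block (0.0343). Pim1 itself was higher on the PIM1 arrays by 1.41 (adjusted p = 0.00455), and EV replicate 2 was the EV array closest to them at 6.25. The medians of all probe sets were 3.50 ± 0.0140 in EV and 3.40 ± 0.0164 in PIM1.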

How the data were processed

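The deposited values are 1 log2 signal per probe set and array, made by the authors with Affymetrix Expression Console (no version), per the submitters' processing notes. The log base was taken from the range of the values, and the sources used here do not give the background correction, summarization or normalization. The values were used as deposited, without detection calls, and the 3 arrays per group limit the precision. Of 41345 probe sets 23521 had 1 gene symbol in the platform annotation, 1814 several and 16010 none, and those with several or none were left out. For a gene with several probe sets the brightest was used, which left 22180 genes. Groups came from the sample titles. The comparison used limma (version 3.58.1, with R 4.3.3; lmFit and eBayes, two-sided, Benjamini-Hochberg over all genes, threshold 0.05), a script checked on simulated data. Summed marker signals are log2 of summed linear signals. The array median is the median of all probe sets, averaged over a group.

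The members and lists were chosen with earlier results of these data known. Named are all members, the 4 genes of each list with the smallest p, those called against most of their list, and the 3 nearest profiles of 2 members. Kdr, Flt4, Pdgfrl, Plat, Epcam and Krt14 were named after their values were seen. Alternatives were other variance models, normalizations, filters and probe set rules, a replicate block, and leaving out each array. Sequences are from RefSeq on GRCm38.p6.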

Additional observations from a re-analysis of the deposited data

How the results depend on the processing

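Of 149 values of the members under the alternatives, 140 kept their direction and their side of the threshold, and the 9 others are the lost calls of Vegfb. The count of called members was 8 or 9 under every alternative, with 5 or 6 higher and 2 or 3 lower, and 8 to 9 without single arrays. Pdgfb could not be tested among the brighter genes, since its signal is too low. All genes called numbered 5995, and 4167 to 5369 without single arrays. With the replicate number as a block 8 members and 5321 genes were called. Arrays of the same number did not deviate together over all genes (correlations of 0.06, -0.03 and 0.01 for replicates 1, 2 and 3). This gave no sign that the numbers pair the samples, but 3 arrays per group cannot settle it. The share of higher calls was 59.6%, and 73.5% with array medians centred. Of 1015 values of 69 other named genes, 973 kept direction and call, 30 lost and 7 gained the call, and 5 turned sign, all of genes that were not called. Kdr ranged from -0.0017 to 0.27 without single arrays, and was below 0 without PIM1 replicate 1. Flt4 was 0.047 after quantile normalization, 0.040 after cyclic loess and 0.057 after centring, and ranged from -0.15 to 0.037 without single arrays, above 0 without PIM1 replicate 3. The causes were not tested. Signals near or below the array median, such as those of Pdgfb in PIM1, Kdr, Flt4 and Pgf, limit what a fall can show.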
